A study of Homo sapiens and Mus musculus with 66 samples.

Results

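The 39 protein-coding genes of the human HOXA, HOXB, HOXC and HOXD clusters were located relative to the chromatin regions that lamin-B1 cTSA-seq called at or near the nuclear lamina (NL). Members were all genes of the GENCODE hg19 annotation, release 44, whose symbol is HOXA, HOXB, HOXC or HOXD followed by digits, and they were 39 of 20163 protein-coding genes on chromosomes 1 to 22, X and Y. HOXA contributed 11 genes, HOXB 10, HOXC 9 and HOXD 9. In cTSA-seq, a peroxidase bound to lamin-B1 deposits biotin on nearby chromatin, which is pulled down with streptavidin and sequenced beside its input. Cells were K562, a human leukemia line, and HCT116, a human colorectal cancer line, with no genetic change in any group by the labels. Unsorted cells were untreated K562 cells, bulk HCT116 cells and HCT116 cells titrated to 50000, 200000 and 1000000 cells. The sorted HCT116 cells were in early G1 (90m G1) or later G1 (180m G1), collected 90 or 180 min after release from a nocodazole block (16 h by the labels, longer by the study's Methods), or were untreated G1, S and G2 cells. The authors deposited 1 list of called regions for each of these 10 conditions, as positions in windows of 100 kb, and neither signal nor depth came with them. Of these conditions, 7 had 2 pull-down and 2 input libraries, those with 50000 and 200000 cells had 2 pull-downs and 1 input, and that with 1000000 cells had 1 of each. Where there were replicates, they were already merged into the list. There were therefore no replicate values, no difference below was tested, and the cell lines could not be checked against marker genes because expression was not analysed here.

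HOX genes encode homeodomain transcription factors that give cells their position along the body axis. In vertebrates they lie in 4 compact clusters, in which the order of the genes follows the order of the body regions where they act, with low-numbered (anterior) genes at one end and high-numbered (posterior) genes at the other. In cells that do not use them, the clusters are a textbook case of Polycomb silencing, in which the mark H3K27me3 covers the genes, and this is a form of repression distinct from the H3K9-methylated heterochromatin typical of lamina-associated domains (LADs).

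The clusters were short beside a lamina region. HOXA spanned 107 kb on chromosome 7 from 27132612 to 27239710 (hg19), HOXB 200.2 kb on chromosome 17 from 46605888 to 46806112, HOXC 117 kb on chromosome 12 from 54332615 to 54449814, and HOXD 98.2 kb on chromosome 2 from 176957449 to 177055635. All 39 genes together touched 9 windows of 100 kb. Because a window was called as a whole, neighbouring HOX genes shared their value and were not independent observations. Some gene models also contain others, as HOXA3, HOXB3, HOXC6 and HOXD3 do.

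Only the list for 180m G1 cells contained HOX genes among the 10 lists. A gene was counted as inside a list when at least 50% of its length lay in called regions. By that count 0 of the 39 HOX genes were inside the K562 regions, against 11.7% of all protein-coding genes. The numbers were also 0 of 39 for HCT116 cells at 50000 cells (all genes 6.35%), 200000 cells (5.47%), 1000000 cells (5.22%) and in bulk (11.5%). Among sorted HCT116 cells they were 0 of 39 in 90m G1 (all genes 17.4%), 6 of 39 in 180m G1 (5.67%), and again 0 of 39 in G1 (5.2%), S (5.79%) and G2 (4.87%). No HOX gene was partly covered, as every member had either 0% or 100% of its length inside each list. Over the 10 lists, 33 of the 39 HOX genes were inside none, against 68.7% of all protein-coding genes. The same 33 were inside none of the 9 HCT116 lists, against 74.6% of all genes.

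The 6 genes were HOXD13, HOXD12, HOXD11, HOXD10, HOXD9 and HOXD8, the high-numbered end of the HOXD cluster. HOXD13 to HOXD9 are posterior genes, which in the embryo act in limbs and the hind part of the body, and HOXD8 belongs to the central group. Each was 100% inside the 180m G1 list and 0% inside the other 9 lists. HOXD3, HOXD4 and HOXD1, the anterior genes of the same cluster, were 0% inside all 10 lists. The 180m G1 region measured 800 kb, from 176200001 to 177000000 on chromosome 2, and covered 43.3% of the HOXD span. Its right edge was the border of a window between HOXD8, which ends at 176997423, and HOXD3, which starts at 177001340, 1.34 kb beyond the edge. The position of this edge within the cluster is known only to the window size of 100 kb.

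**Figure D1:**
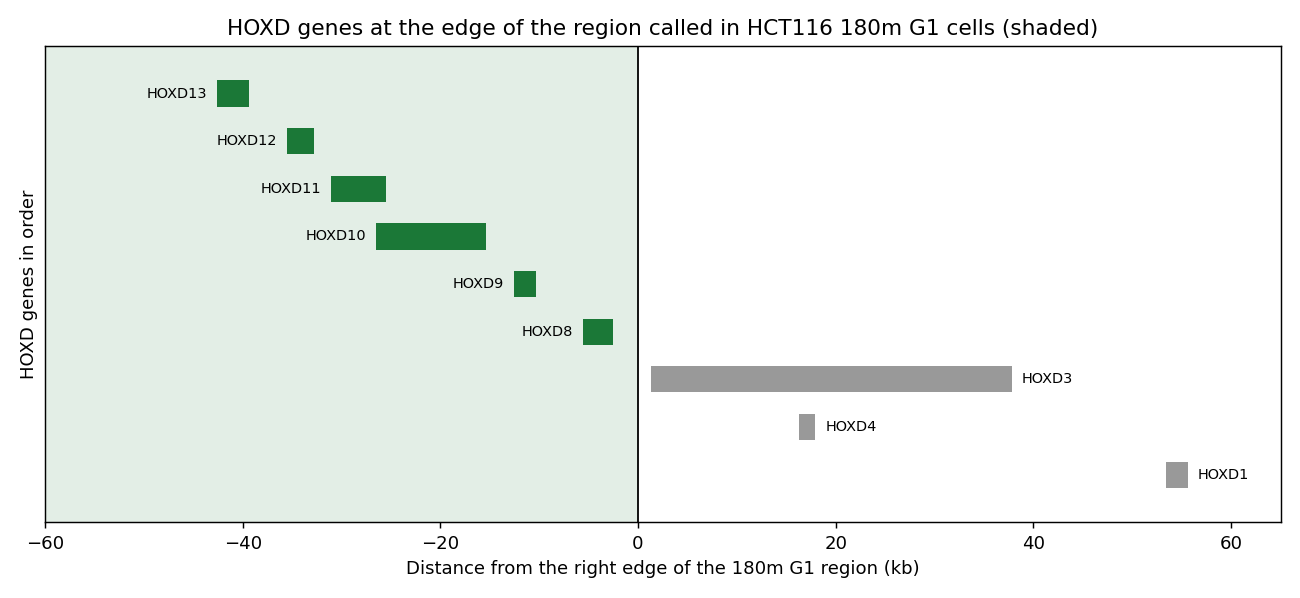
HOXD genes in their order on the chromosome (bars, one row per gene), plotted by distance in kb from the right edge of the region called in HCT116 180m G1 cells, which is shaded. The 6 genes HOXD13 to HOXD8 (green) lie whole inside the region, and HOXD3, HOXD4 and HOXD1 (grey) lie beyond its edge, HOXD3 starting 1.34 kb from it.

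The region also held the neighbours of HOXD on that side. EVX2, a homeobox gene next to HOXD13, and LNPK, which encodes a protein of endoplasmic reticulum junctions, were each 100% inside the 180m G1 list and 0% inside the other 9. With them the region contained 8 whole protein-coding genes. All of its 8 windows were absent from the other 8 HCT116 lists, while 5 of them were called in K562 cells and 3 in no other list. Windows of this kind were a minority, since 418 of the 6344 windows called in 180m G1, or 6.59%, were called in no other HCT116 list. Of the 377 regions of 180m G1, 28 had no overlap with any other HCT116 list. These 28 had a median size of 500 kb. The region at HOXD was 1 of the 6 that measured 800 kb or more, and the only 1 with as many as 8 whole protein-coding genes. Of those 8 genes, 6 were the HOXD genes by which the region was chosen, so its gene number is not an independent trait. Among all protein-coding genes, 0.66% were inside 180m G1 and inside no other HCT116 list. Unlike the lists for K562 cells, cell numbers, bulk, G1, S and G2, those for 90m G1 and 180m G1 are not named as a consensus of replicates, although the study's Methods describe intersecting replicate calls. The name is no sure guide, as the list for 1000000 cells carries it with 1 pull-down library by the labels. The part of the difference in naming, and of the nocodazole block, in the HOXD call was not tested.

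The sequences directly before the starts of 4 HOXD genes are given because they lie on both sides of the edge, HOXD13 and HOXD8 inside the region and HOXD3 and HOXD1 beyond it. Each is the 250 bases upstream of the GENCODE gene start, on the plus strand of chromosome 2 in hg19, written 5′ to 3′ with CG dinucleotides, the sites of DNA methylation, in capitals. They run from 176957199 to 176957448 for HOXD13, from 176994172 to 176994421 for HOXD8, from 177001090 to 177001339 for HOXD3 and from 177053146 to 177053395 for HOXD1.
HOXD13: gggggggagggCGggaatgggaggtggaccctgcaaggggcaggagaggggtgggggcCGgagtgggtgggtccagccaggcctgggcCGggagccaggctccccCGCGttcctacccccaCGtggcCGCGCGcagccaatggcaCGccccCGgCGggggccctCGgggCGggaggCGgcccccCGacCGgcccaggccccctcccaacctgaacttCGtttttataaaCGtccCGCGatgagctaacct
HOXD8: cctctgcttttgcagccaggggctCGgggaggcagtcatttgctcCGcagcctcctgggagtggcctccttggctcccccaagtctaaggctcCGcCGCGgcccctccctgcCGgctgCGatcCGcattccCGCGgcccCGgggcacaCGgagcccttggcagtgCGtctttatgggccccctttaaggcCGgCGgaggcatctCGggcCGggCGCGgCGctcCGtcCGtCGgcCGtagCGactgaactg
HOXD3: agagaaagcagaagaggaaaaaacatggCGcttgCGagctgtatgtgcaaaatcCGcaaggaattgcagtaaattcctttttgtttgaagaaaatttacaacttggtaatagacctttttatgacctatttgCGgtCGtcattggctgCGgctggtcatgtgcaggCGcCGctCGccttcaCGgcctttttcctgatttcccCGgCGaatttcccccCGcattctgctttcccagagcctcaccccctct
HOXD1: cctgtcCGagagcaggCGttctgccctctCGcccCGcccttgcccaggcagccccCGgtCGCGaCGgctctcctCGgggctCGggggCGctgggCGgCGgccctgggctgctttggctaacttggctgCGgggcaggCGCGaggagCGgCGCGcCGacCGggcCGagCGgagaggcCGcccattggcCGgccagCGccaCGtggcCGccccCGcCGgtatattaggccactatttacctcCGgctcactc

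The number of CG dinucleotides varied among the HOXD genes on both sides of the edge. HOXD13 had 21 CG dinucleotides and HOXD8 had 25, and 31.8% and 22.3% of all protein-coding genes had as many or more in the same interval. Beyond the edge, HOXD3 had 13, a number reached by 53.1% of genes, and HOXD1 had 31, reached by 10.8%. Of the HOXD genes not printed, HOXD12, HOXD10 and HOXD9 inside the region had 16, 17 and 20, HOXD11 inside it had 8, and HOXD4 beyond it had 4. Over the 39 HOX genes the number ranged from 3 at HOXA9 to 40 at HOXA13, with a median of 12 (all 20140 genes with this sequence, median 14). The HOXD genes had a median of 17, HOXC 12, HOXA 11 and HOXB 9.5.

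On the scale of the windows that were called, HOX chromatin was richer in CG than most of the genome. The 9 windows that touch HOX genes held 17.6 to 31 CG per kb, with a median of 25.8, against a median of 8.11 over the 28303 windows of the genome without gaps. The lowest of the 9 exceeded 91.8% of all such windows, and the median exceeded 98.1%. GC content in the 9 windows was 45.6 to 51.9% (genome median 39.8%). Windows called in K562 had a median of 6.24 CG per kb and those of 180m G1 a median of 6.35, while the windows called in 90m G1 had 10.6. Windows of the K562 nonLAD list, described below, had a median of 14.7. The window called in 180m G1 over HOXD13 to HOXD8 held 29.8 CG per kb, and the next, uncalled window with HOXD3, HOXD4 and HOXD1 held 19.7.

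In K562 cells the clusters fell into 2 kinds by the list of nonLADs, the windows that both cTSA-seq and the published TSA-seq data found depleted. All 10 HOXB genes and all 9 HOXC genes were 100% inside this nonLAD list, which contained 55% of all protein-coding genes. None of the 11 HOXA genes or the 9 HOXD genes was in it. None of the 39 HOX genes was inside the K562 regions of the published TSA-seq data (all genes 9.63%), the regions shared by both methods (7.21%) or the regions found by cTSA-seq only (2.52%). The 20 HOXA and HOXD genes therefore lay in sequence given neither call in K562, as did 28.9% of all protein-coding genes.

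Extending each cluster by 2 Mb on both sides separated the same pairs. HOXB with its flanks, 4.20 Mb in all, was 100% inside the nonLAD list, and HOXC with its flanks was 63.6% inside. The list covered 67.9% of chromosome 17, 26.1% of chromosome 12 and 20.8% of the genome. The corresponding values were 23.6% for HOXA, beside 21% of chromosome 7, and 13.2% for HOXD, beside 17.3% of chromosome 2. At HOXA and HOXD all of the nonLAD sequence lay on the left side, at lower coordinates than the cluster. Gene content set the same pairs apart, though not in the same order within them, with 29.4 protein-coding genes per Mb around HOXC, 20.5 around HOXB, 7.08 around HOXD and 6.82 around HOXA.

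**Figure D2:**
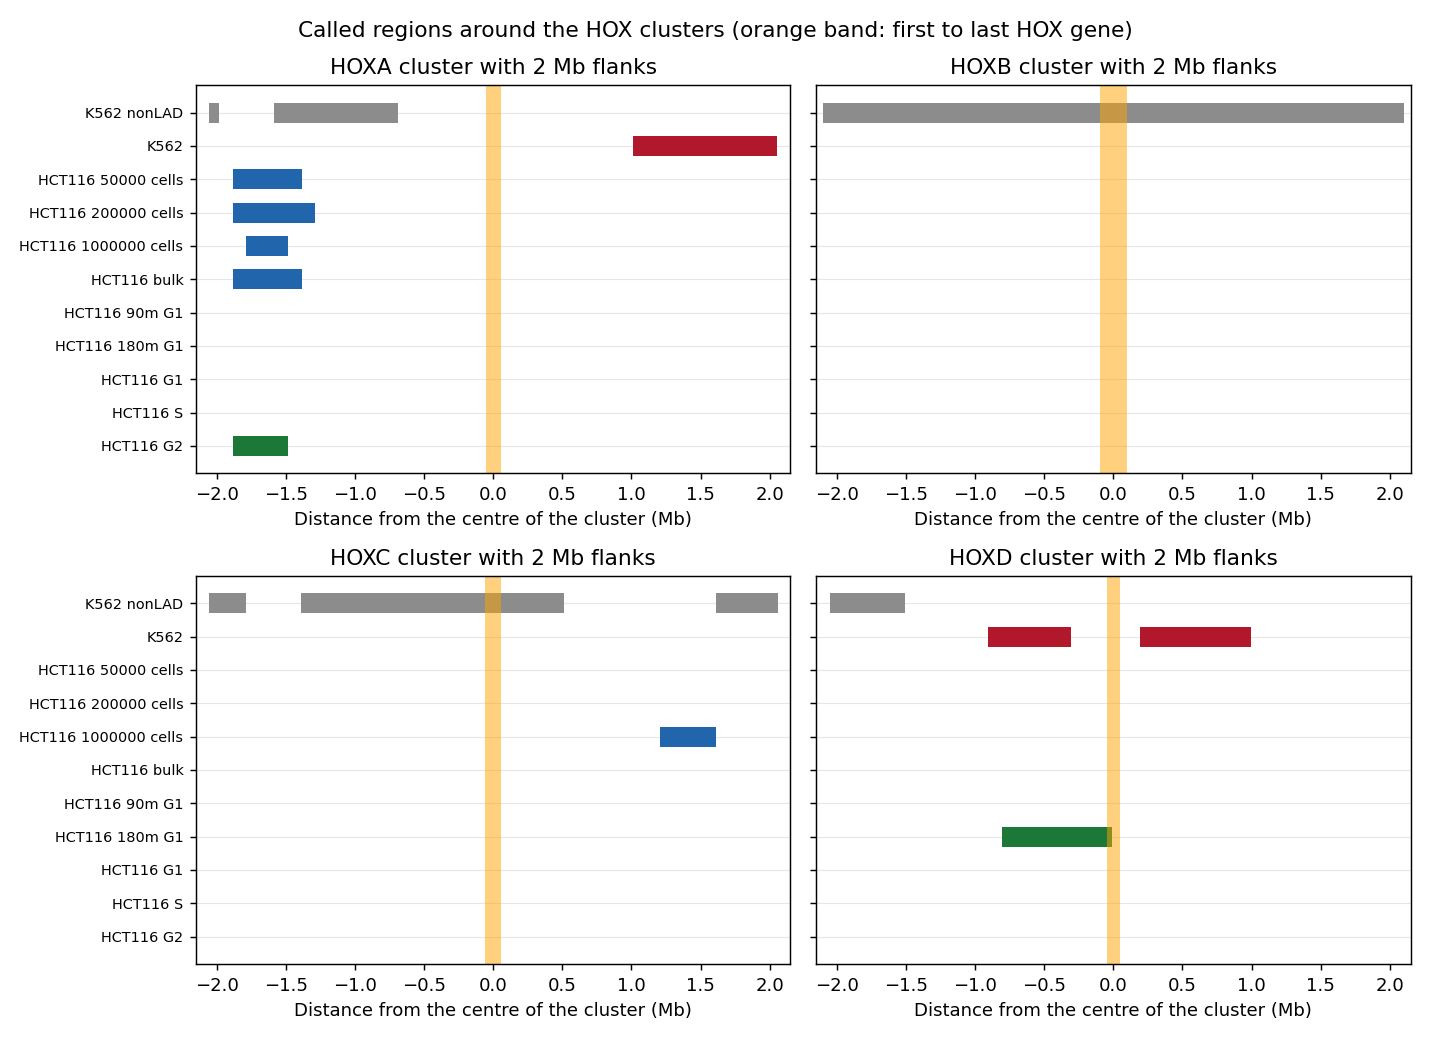
Regions called in each list (bars, one row per list) across each HOX cluster and 2 Mb on both sides, plotted by distance in Mb from the centre of the cluster, with the cluster itself as an orange band. Red is K562, blue unsorted HCT116, green sorted HCT116 and grey the K562 nonLAD list. Only the 180m G1 region at HOXD reaches the band among called regions, the K562 regions stand on both sides of HOXD, and HOXB has no called region within 2 Mb.

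The HOXD cluster in K562 cells lay in a gap between called regions. One region of 600 kb, from 176100001 to 176700000, ended 257 kb before HOXD13, and another of 800 kb, from 177200001 to 178000000, began 144 kb after HOXD1. The gap of 500 kb between them, from 176700001 to 177200000, held 11 whole protein-coding genes, which were the 9 HOXD genes, EVX2 and LNPK. MTX2, a mitochondrial outer membrane protein gene on the other side of the cluster, had 4.01% of its length in the second region. Both regions belonged to the authors' list of regions found by cTSA-seq and not by the published TSA-seq. By the paper, those TSA-seq data were made with another lamin antibody, so method and antibody cannot be told apart here. The paper's own TSA-seq, with the cTSA-seq antibody, gave most but not all of the same cTSA-seq only regions. Among the 640 gaps between neighbouring K562 regions, 190 were 500 kb or shorter, and in 19 of these neither bordering region overlapped a TSA-seq region.

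The flanks of HOXD were called in K562 cells and, apart from 180m G1, not in HCT116 cells. With 2 Mb flanks, 34.2% of the HOXD interval was inside the K562 regions. It was 0% inside for 50000, 200000 and 1000000 HCT116 cells and for bulk cells. On the whole of chromosome 2 the K562 regions covered 44.1%, and the 4 unsorted HCT116 lists covered 18.2 to 26.2%. K562 exceeded HCT116 bulk by 34.2 percentage points at HOXD, and the 4 unsorted HCT116 lists did not differ from each other there. That difference was 0 when the published TSA-seq list took the place of the cTSA-seq list for K562.

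For HOXA, called regions stood on opposite sides of the cluster in the 2 cell lines. In K562, 25.3% of HOXA with its flanks was called, all of it in a region of 1300 kb from 28200001 to 29500000 that began 960.3 kb to the right of the cluster. CREB5, which encodes a transcription factor, TRIL and CPVL were 100% inside it, and CHN2 was 85.3% inside, while all 4 genes were 0% inside every HCT116 list. In unsorted HCT116 cells the called share was 12.2% with 50000 cells, 14.6% with 200000 cells, 7.30% with 1000000 cells and 12.2% in bulk. This came from a region on the left side, from 25300001 to 25800000 in the bulk list, which contained no HOXA neighbour by at least 50% of its length. K562 exceeded HCT116 bulk by 13.1 percentage points, against a range of 7.30 points among the unsorted HCT116 lists, and with the TSA-seq list for K562 the difference reversed to -12.2 points. The nearest genes on each side of the cluster, EVX1 and SKAP2, were 0% inside all 10 lists.

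HOXB had no called sequence within 2 Mb in any of the 10 lists. Its nearest neighbours, TTLL6 and SKAP1, were 100% inside the K562 nonLAD list, as were all 76 genes of its flanks. HOXC was called in its flanks in a single list, that for 1000000 HCT116 cells, at 9.72%, and in 0% of the other 9. This region of 400 kb, from 55600001 to 56000000, held 13 protein-coding genes, all olfactory receptors, of which OR10A7 was the nearest to the cluster at 1165 kb. SMUG1, a DNA repair gene, and CALCOCO1, the nearest genes to HOXC on each side, were 100% inside the nonLAD list and 0% inside the 10 lists. Over all 4 clusters, 19 of 225 other genes within 2 Mb were inside at least 1 of the 10 lists, where 68.7% of all protein-coding genes were inside none. These were 4 around HOXA, 0 around HOXB, 13 around HOXC and 2 around HOXD.

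**Figure D3:**
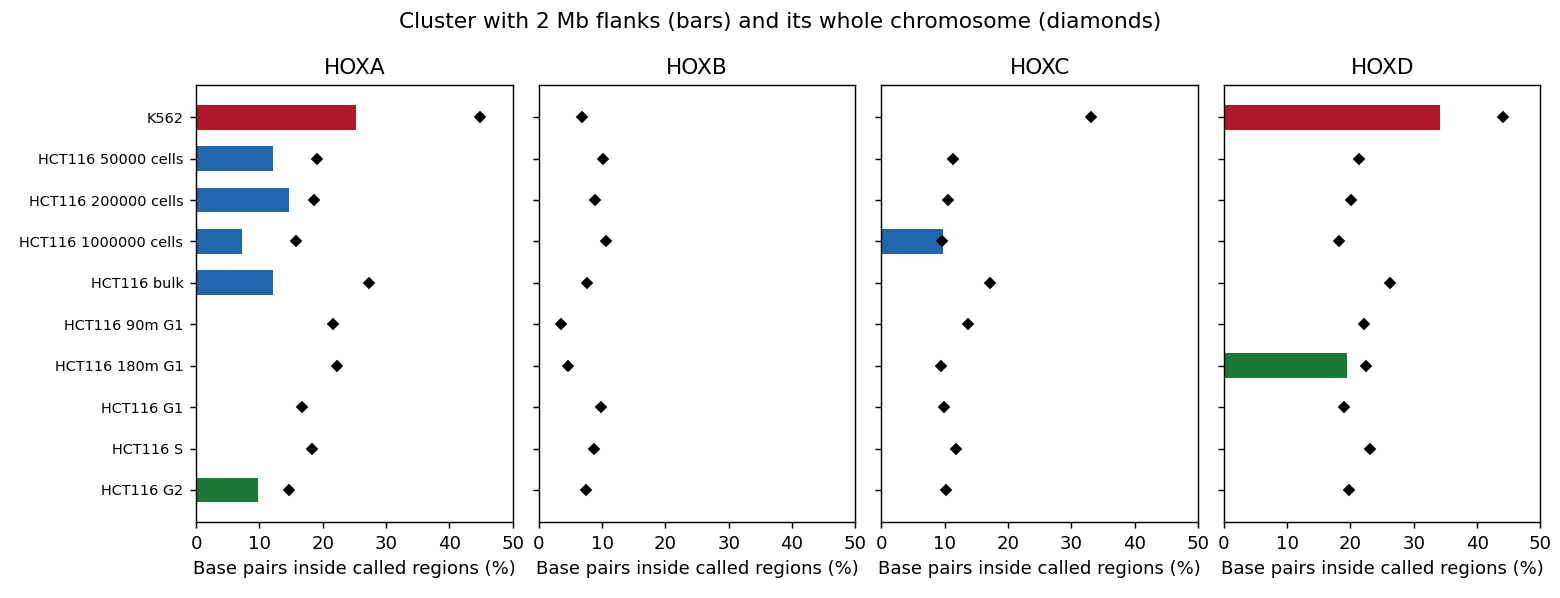
Percent of base pairs inside called regions for each HOX cluster with 2 Mb flanks (bars) and for the whole chromosome that carries it (diamonds), by list. Bars are at 0 for HOXB in every list, and HOXD has bars in K562 (34.2%) and 180m G1 (19.5%) alone.

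Taking the 4 flanked clusters as a whole, 14.8% of their base pairs was inside the K562 regions, which covered 39.6% of the genome. In HCT116 it was 3.03% with 50000 cells (genome 22.8%), 3.63% with 200000 cells (21.9%), 4.24% with 1000000 cells (21.2%) and 3.03% in bulk (26.9%). In each of the 10 lists, every flanked cluster was called to a lower share than its chromosome, with the exception of HOXC with 1000000 cells, where 9.72% stood beside 9.64% for chromosome 12. The K562 regions found by cTSA-seq only, a subset of the K562 list, went the other way at HOXA and HOXD, with 25.3% of flanked HOXA beside 8.17% of chromosome 7 and 34.2% of flanked HOXD beside 4.44% of chromosome 2. The paper reports H3K27me3 enrichment in the cTSA-seq only regions, and this mark was not analysed here.

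Through the cell cycle, the flanked HOX clusters carried few calls. In 90m G1, when the NL reassembles after mitosis, 0% of the 4 flanked clusters was called, while the list covered 17% of the genome. In 180m G1 19.5% of the HOXD interval was called and 0% of the other 3, and in G1 and in S 0% of all 4. In G2 9.74% of the HOXA interval was called, from 25300001 to 25700000, at the place where the unsorted HCT116 lists had their region, and 0% of the other 3. The 90m G1 list therefore did not differ from the G1 list in any flanked cluster, and the 180m G1 list exceeded G1 by 19.5 percentage points at HOXD, where G1, S and G2 were all at 0%.

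The distance from each cluster to the nearest called region set the lists apart more clearly. HOXB lay 2.79 to 2.99 Mb from the nearest region in 9 of the lists and 24.6 Mb in 90m G1. For HOXC the distance was 3.95 Mb in K562, 1.15 Mb with 1000000 HCT116 cells, 15.8 to 15.9 Mb in the other unsorted HCT116 lists, 50.4 Mb in 90m G1 and 20 to 20.2 Mb at the later stages. HOXA was 0.96 Mb from a region in K562, 1.23 to 1.43 Mb in unsorted and G2 HCT116 cells and 3.46 to 4.16 Mb in the remaining lists. For HOXD it was 0.144 Mb in K562, 0 in 180m G1, 27.8 Mb in 90m G1 and 8.26 to 8.66 Mb in the other 7. The median over the 39 genes was 24.8 Mb in 90m G1 and 4.06 Mb in G1, where all protein-coding genes on chromosomes with calls had medians of 5.11 and 2.46 Mb. In K562 the HOX median was 1.06 Mb and that of all genes 1.55 Mb. The HOX medians rest on the positions of the clusters, whose genes lie close together, and not on 39 independent values. The clusters are interior on their chromosomes, at 27.1 Mb (HOXA), 34.4 Mb (HOXB), 54.3 Mb (HOXC) and 66.1 Mb (HOXD) from the nearer end. The paper reports that lamin-B1 signal in early G1 is enriched toward the ends of chromosomes. Whether the distances of the clusters differ from those of other interior loci was not tested, so they are not read as a trait of HOX genes.

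**Figure D4:**
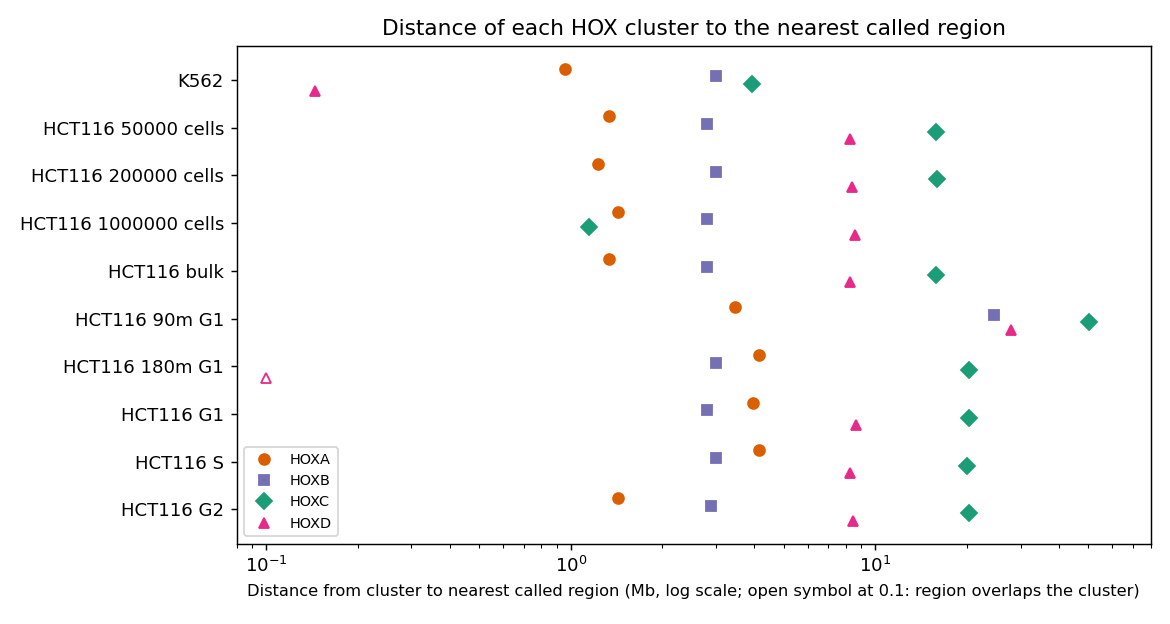
Distance in Mb from each HOX cluster to the nearest called region, on a log axis, by list. The open triangle marks HOXD in 180m G1, where a region overlaps the cluster. HOXB, HOXC and HOXD lie farthest from a region in 90m G1 (24.6, 50.4 and 27.8 Mb), and HOXD lies nearest in K562 (0.144 Mb) apart from that overlap.

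Other homeobox genes and partners of HOX proteins were counted in the same lists. Of 6 ParaHox genes, the sister group of the HOX clusters, none was inside the K562 regions (all genes 11.7%). CDX4 was 100% inside 8 of the 9 HCT116 lists, all but 90m G1, and CDX1 was 100% inside 90m G1 alone. Each HCT116 list thus held 1 of the 6, where the share of all genes ranged from 4.87% in G2 to 17.4% in 90m G1. Of 15 homeobox genes related or linked to the clusters, 3 were inside in K562 (MEOX2, DLX5 and DLX6; all genes 11.7%), 3 in HCT116 bulk (11.5%), 4 in 90m G1 (17.4%) and 1, EVX2, in 180m G1 (5.67%). DLX5 and DLX6 are the partners of a gene pair that works in the jaw and limbs, and both were 100% inside the cTSA-seq only list. Of 9 genes for cofactors that bind DNA with HOX proteins, 3 were inside at least 1 of the 10 lists. Of all protein-coding genes, 68.7% were inside none. MEIS1 was 100% inside K562 and 8 of the 9 HCT116 lists, again all but 90m G1. PKNOX2 was 100% inside HCT116 bulk and 90m G1 and 0% inside the other 8 lists.

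Polycomb proteins silence HOX genes and Trithorax-group proteins maintain their expression. Of 19 genes for Polycomb proteins, 5 were inside 90m G1 and none was inside any other of the 10 lists. EZH2, JARID2, CBX2 and CBX8 were among the 5, each 100% inside 90m G1 and 0% inside the other 9 lists. CBX2 and CBX8 lie close together on chromosome 17, and EZH2 encodes the enzyme that sets H3K27me3. Of 6 genes for Trithorax-group proteins, RBBP5 and WDR5 were 100% inside 90m G1, and none was inside any other of the 10 lists. The 90m G1 list contained 17.4% of all protein-coding genes, the highest share of the 10 lists, and nothing particular to these genes is read from them. The 39 HOX genes had 0 inside in the same list.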

How the data were processed

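Lamin-B1 cTSA-seq of K562 and HCT116 cells was measured as streptavidin pull-down and input. According to the Methods and the labels, the authors aligned reads to hg19 with Bowtie2 2.3.2, counted them in windows with bedtools 2.26.0, scaled the log2 enrichment over input to a z-score, segmented it by a hidden Markov model with 3 states and intersected replicates. The lists of the authors used here give the position of each region in bp, and hold neither signal nor read depth. In the 14 lists used, every region end was a multiple of 100 kb or the end of an hg19 chromosome.

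Percents of genes and intervals inside regions were computed with Python 3.11.15 and numpy 2.4.6, with gene spans from GENCODE 44 in hg19 coordinates, 2 Mb flanks and a requirement of 50% of a gene. An alternative counted as a change when a percent left its 95% interval over windows (Wilson, scipy 1.17.1), a difference moved by more than the range over the comparable HCT116 lists, or a distance by more than 100 kb. The Wilson interval takes windows as independent, which neighbouring windows are not, so it served as a limit and not as a measure of spread. Figures used matplotlib 3.10.9. The overlap functions were tested on simulated lists. Since each condition has 1 merged list, no test was made.

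The alternatives were any overlap, whole genes or start sites in place of 50%, flanks of 1 and 5 Mb, joined gaps, regions of at least 200 kb, and other reference lists. Members and gene lists were chosen with earlier results of these data known. Other genes were named if they were the nearest to a cluster on either side, among the first 8 by distance within 2 Mb that were inside at least 1 list, or, on the fixed lists of related genes, among those with the highest percents. Some genes of these lists are not reported here. The hTERT-RPE1, mouse cerebellum and SLAM-seq libraries and the K562 libraries titled TSA were not analysed here.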

Additional observations from a re-analysis of the deposited data

Results flagged for a closer look

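HOXC with 2 Mb flanks was 9.72% inside the regions called from 1000000 HCT116 cells and 0% inside the lists for 50000 cells, 200000 cells and bulk, which set it apart from the other 3 lists of unsorted HCT116 cells. With 0% in all of these lists but 1, the rule used always sets that list apart, so the flag carries no rate of chance. The labels give 1 pull-down library for 1000000 cells and 2 for each of the others, and the part of this in the call was not tested. The region holds 13 olfactory receptor genes and no HOX gene.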

How the results depend on the processing

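The number of HOX genes inside each list was the same with any overlap, whole genes, start sites, joined gaps of up to 100 kb and regions of at least 200 kb. Every HOX gene lay wholly inside or wholly outside each list, so any overlap, whole genes and start sites could give no other number. Nor could leaving out regions under 200 kb, as the 180m G1 region at HOXD measured 800 kb. The agreement of most of these counts was therefore fixed in advance. The 6 genes inside at least 1 list rest on the 180m G1 list, and without the lists not named as a consensus (90m G1 and 180m G1, an alternative chosen after seeing the data) the number was 0. No paired analysis was possible because the lists are merged over replicates, and no replicate could be left out for the same reason. Of 211 alternative values, 54 gene counts, 84 percents and differences and 41 distances stayed within the limits set for a change. Beyond them, 1 gene count, 27 percents and differences and 3 distances moved and 1 difference reversed. Within 2 Mb of the clusters every called region was at least 300 kb long. The only pair from the same list, in K562 at HOXD, was 500 kb apart. Joined gaps and regions of at least 200 kb could therefore change no percent or difference, and that agreement was fixed in advance.

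Flanks of 1 Mb left out sequence and flanks of 5 Mb took in more, and each changed the length over which a percent was taken. At HOXD, 1 Mb flanks kept all called sequence of K562 and 180m G1 and set it against a shorter interval. With 1 Mb flanks the share of the 4 flanked clusters called was 0% for 50000 cells, 200000 cells, 1000000 cells, bulk and G2, and 9.39% in 180m G1. With 5 Mb flanks it was 24.6% in K562, 8.50% with 50000 cells, 8.75% with 200000 and with 1000000 cells, 10.5% in bulk, 3.80% in 90m G1, 6.78% in S and 7.76% in both G1 and G2. In the nonLAD list HOXB was 75.4% inside with 5 Mb flanks and HOXD 0% with 1 Mb flanks. K562 minus HCT116 bulk was 1.88 points at HOXA and 66.7 at HOXD with 1 Mb flanks, and -1.96 at HOXB, 10.4 at HOXC and 39.2 at HOXD with 5 Mb flanks. With the published TSA-seq list for K562 it was -12.2 points at HOXA, a reversal, and 0 at HOXD. The K562 regions near both clusters are absent from that list, which differs from cTSA-seq in method and antibody. At HOXB, 90m G1 minus G1 was -20.6 points and 180m G1 minus G1 was -1.96 points with 5 Mb flanks. At HOXD, 180m G1 minus G1 was 38.1 points with 1 Mb and 7.92 points with 5 Mb flanks. Against the K562 regions shared with TSA-seq, the nearest region lay 4560.3 kb from HOXA, 3194 kb from HOXB and 2444 kb from HOXD.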
